A study of Mus musculus with 8 samples.

Results

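Open chromatin was compared between the Tumor and the EpCAM-high peak lists of the Sox9 set, the lists of ATAC-seq peaks that carry those names. Overlapping peaks of the 2 lists were merged (minimum overlap 1 bp), and each of the 73444 resulting regions was classed by the list that held it. There were 15181 Tumor-only regions, 33921 EpCAM-high-only regions and 24342 regions held by both lists. The union of all 5 peak lists of the series had 138775 regions. The study profiled primary liver cells of a mouse model of hepatocellular carcinoma (HCC) that lacks the Rb gene family, taken from early and from macroscopic lesions. Cells were digested from liver or from visible lesions and sorted as YFP-positive, YFP being switched on where Cre has recombined, and then by Thy1 and EpCAM on their surface. The labels name 8 samples in 5 groups and no sample called Tumor, so the Tumor list was tied to no sorted group. The EpCAM-high list carries the name of 1 sample, EpCam_High_Sox9. The labels state neither the alleles, the Cre driver and the age of the animals, nor what Sox9 and CK19 stand for in the names. They also do not say whether animals or lesions were pooled. Each condition had 1 list, so replicate error could not be measured and conditions were not tested against each other. Intervals are exact 95% ones (Clopper-Pearson) for counting error alone, and read depth is unknown. In such bulk material, fewer cells of a type and less open chromatin per cell cannot be told apart.

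ATAC-seq uses a transposase that cuts and tags accessible DNA, so that a peak marks a promoter, an enhancer or another open site. Hepatocytes and bile duct cells share an embryonic progenitor. Hepatocytes keep open the genes of plasma proteins, urea and bile acid metabolism under factors such as HNF4A, C/EBP and FOXA, whereas duct cells use SOX9, GRHL2 and genes of ion transport and junctions. The Rb family proteins RB1, RBL1 and RBL2 restrain E2F factors, which drive genes of DNA replication and the cell cycle.

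The promoters shown here are those of list genes with a peak in 1 list and not in the other, because their sequence can be set beside the lists. Each run is the 200 bases before the RefSeq start site (GRCm38.p6, the same build as mm10), 5′ to 3′ on the gene's strand, and capitals mark the 7 searched motifs. Of the 8 promoters the naming rule gave, the 5 with a match are printed, the first 2 covered by a Tumor peak and not by an EpCAM-high peak, and the last 3 the reverse. Cyp8b1 encodes the sterol 12-alpha-hydroxylase of bile acid synthesis (chr9:121916306-121916505, minus strand). F10 encodes coagulation factor X (chr8:13037108-13037307, plus strand). Ltbp1 encodes a matrix protein that binds latent TGF-beta (chr17:75005329-75005528, plus strand). Cftr encodes the chloride channel of duct epithelium (chr6:18170487-18170686, plus strand), and Esrrg an orphan nuclear receptor (chr1:187608806-187609005, plus strand).
Cyp8b1: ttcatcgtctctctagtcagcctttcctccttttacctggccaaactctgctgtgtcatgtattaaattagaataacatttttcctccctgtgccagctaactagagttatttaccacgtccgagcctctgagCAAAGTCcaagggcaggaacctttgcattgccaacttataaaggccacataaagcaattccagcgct
F10: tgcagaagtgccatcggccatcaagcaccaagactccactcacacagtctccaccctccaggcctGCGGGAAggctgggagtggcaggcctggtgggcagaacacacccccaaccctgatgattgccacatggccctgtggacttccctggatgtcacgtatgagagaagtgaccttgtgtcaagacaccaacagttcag
Ltbp1: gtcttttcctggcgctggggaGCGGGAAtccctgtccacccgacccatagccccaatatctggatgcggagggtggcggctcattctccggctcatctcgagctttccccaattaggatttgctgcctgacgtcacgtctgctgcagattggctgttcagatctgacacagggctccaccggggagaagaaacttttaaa
Cftr: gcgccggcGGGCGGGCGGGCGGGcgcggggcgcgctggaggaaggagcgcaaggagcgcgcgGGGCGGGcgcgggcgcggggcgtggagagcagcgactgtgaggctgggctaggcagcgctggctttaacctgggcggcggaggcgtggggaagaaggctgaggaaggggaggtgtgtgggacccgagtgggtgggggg
Esrrg: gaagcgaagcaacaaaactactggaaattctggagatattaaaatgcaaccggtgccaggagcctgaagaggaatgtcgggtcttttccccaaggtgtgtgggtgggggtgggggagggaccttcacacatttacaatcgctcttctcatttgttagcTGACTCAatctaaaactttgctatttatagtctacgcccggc
The capitals in Cyp8b1 are the HNF4 motif CAAAGTC, beginning 67 bases before the start. F10 and Ltbp1 hold the E2F motif TTCCCGC on the opposite strand, at 135 and 179 bases before their starts. Cftr holds the SP and KLF motif GGGCGGG 4 times, with matches at 192, 188 and 184 bases that overlap each other and a separate match at 138 bases, in a window with a GC content of 77.5%. Esrrg holds the AP-1 motif TGANTCA at 42 bases. The promoters of Igfbp1 and Serpinc1, on the Tumor side, and Syt1, on the EpCAM-high side, held none of the 7 motifs.

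The Tumor list was shorter and its peaks were wider. It held 39644 peaks over 24.3 Mb, against 59454 peaks over 26.4 Mb in the EpCAM-high list. The authors' −log10 q values describe each list on its own scale, since read depth is unknown, and had a median of 8.78 in Tumor and 12.9 in EpCAM-high, and 70.8% of Tumor peaks and 81.2% of EpCAM-high peaks reached 5. The median peak width was 495 bp in Tumor and 349 bp in EpCAM-high. To take list length out of the comparison, it was repeated at equal length, with the 39644 EpCAM-high peaks of highest −log10 p.

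Of the regions as deposited, 20.7% (20.38 to 20.96) were Tumor only, 46.2% (45.8 to 46.5) EpCAM-high only and 33.1% (32.8 to 33.5) shared. At equal length the 2 one-list classes were close in number, with 18950 Tumor-only regions (32.6%), 18572 EpCAM-high-only regions (32.0%) and 20580 shared regions (35.4%). Among peaks with −log10 q of 5 or more, Tumor-only regions made up 13.7%, EpCAM-high-only regions 49.2% and shared regions 37.0%. The shared regions were the widest, with a median of 739 bp, against 338 bp for Tumor-only and 272 bp for EpCAM-high-only regions. A shared region spans merged peaks of both lists, so the merging itself partly sets its greater width. They held 61.7% of all Tumor peaks and 42.9% of all EpCAM-high peaks. Each list was ranked by −log10 p and cut into 5 bins of equal size. In the highest bin 93.1% of Tumor peaks and 74.9% of EpCAM-high peaks lay in shared regions, and in the lowest bin 18.2% of Tumor peaks and 19.7% of EpCAM-high peaks did. The lists differ in length, so these shares are not compared between them.

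**Figure D1:**
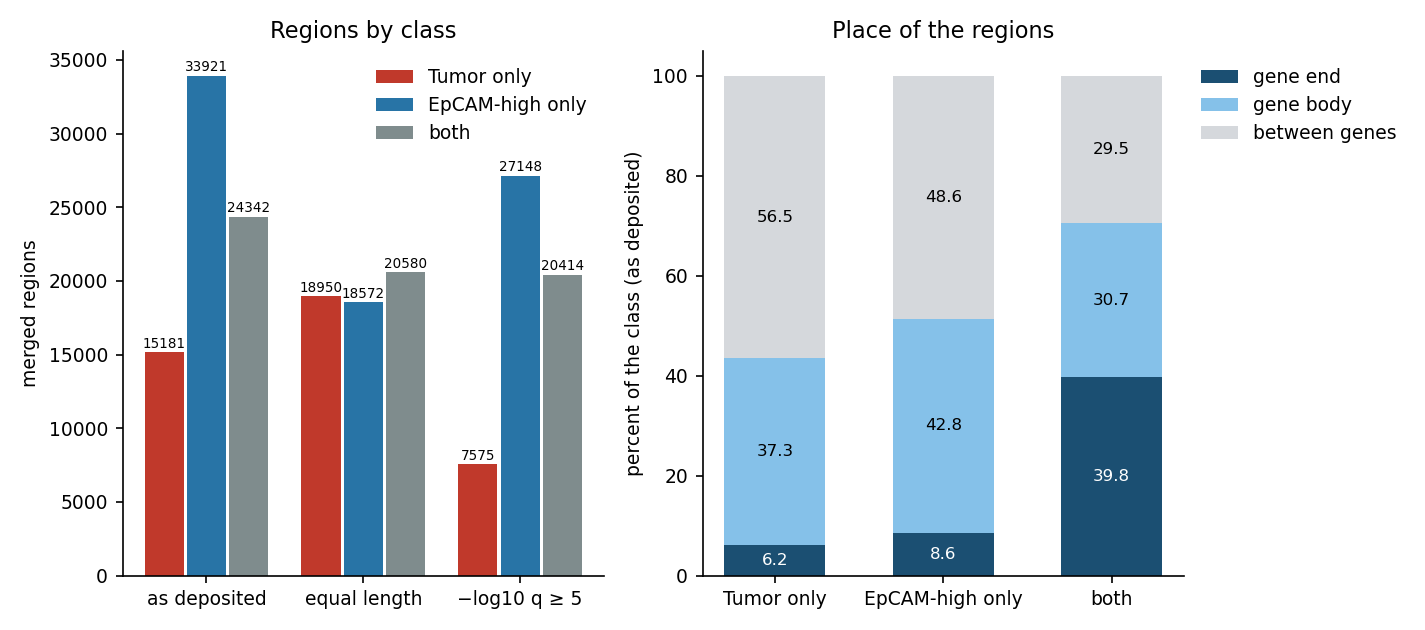
Number of merged regions of each class (left, linear axis from 0, as deposited, at equal list length and with −log10 q of 5 or more) and the place of the regions of each class as deposited (right, percent of the class). Tumor-only regions numbered 15181 as deposited and 18950 at equal length, and 39.8% of the shared regions lay at gene ends.

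Shared regions lay at gene ends more often than one-list regions. A region counted as gene-end when it came within 1000 bp of the first or the last base of a protein-coding gene, since start sites were known for 79.9% of the 21883 genes. Such regions made up 6.15% (5.78 to 6.55) of the Tumor-only class, 8.60% (8.30 to 8.90) of the EpCAM-high-only class and 39.8% (39.2 to 40.4) of the shared class. Regions between genes made up 56.5%, 48.6% and 29.5% of these classes in the same order. The difference between the one-list classes at gene ends was absent at equal length, where 9.02% of Tumor-only and 8.62% of EpCAM-high-only regions lay there.

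The regions of each class with the highest −log10 q also differed in place. The 5 highest Tumor-only regions all lay between genes, and 4 of them overlapped no peak of the other 3 lists of the series. The highest, on chromosome 1 from 88287433 to 88288665, had a −log10 q of 134, lay 10.4 kb from Hjurp, which encodes a centromere histone chaperone, and was held by all 3 other lists. The next was on chromosome 14 from 114062605 to 114063149, 1029 kb from Gpc5, a glypican gene, with a −log10 q of 125. Of the 5 highest EpCAM-high-only regions, 4 lay inside genes, namely Macrod2, Rab27b, Sfi1 and Atp10a, and 1 lay 19 bp from Slco4c1, a gene of an organic anion transporter. Their −log10 q values ranged from 201 to 234, and each was also held by the EpCAM-high CK19 list, from the same sort in another set. Of the 5 highest shared regions, 3 lay on unplaced sequences. The highest, on chromosome 1 from 24612371 to 24613442, had a −log10 q of 4367 in Tumor and 2196 in EpCAM-high.

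Among 26 gene lists, the largest differences at gene ends at equal length were in hepatocyte and duct genes. Of 26 genes of proteins that hepatocytes secrete, 25 had a gene-end peak in Tumor, against 14 in EpCAM-high and 10 in EpCAM-high at equal length. Of 30 biliary and progenitor genes, 14 had one in Tumor, against 29 in EpCAM-high and 27 at equal length. Over all 21883 protein-coding genes the shares were 51.1% in Tumor, 57.7% in EpCAM-high and 51.1% in EpCAM-high at equal length. At equal length the Tumor share exceeded the EpCAM-high share of the secreted-protein list without overlap of intervals, at 96.2% (80.4 to 99.9) in Tumor against 38.5% (20.2 to 59.4) in EpCAM-high. The biliary shares were 46.7% (28.3 to 65.7) in Tumor and 90% (73.5 to 97.9) in EpCAM-high at equal length, again without overlap. For the other 24 lists the 2 intervals overlapped. Members of a list are not replicates, and the lists were chosen with earlier results of these data known. The overlap of intervals is therefore a description and no test.

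**Figure D2:**
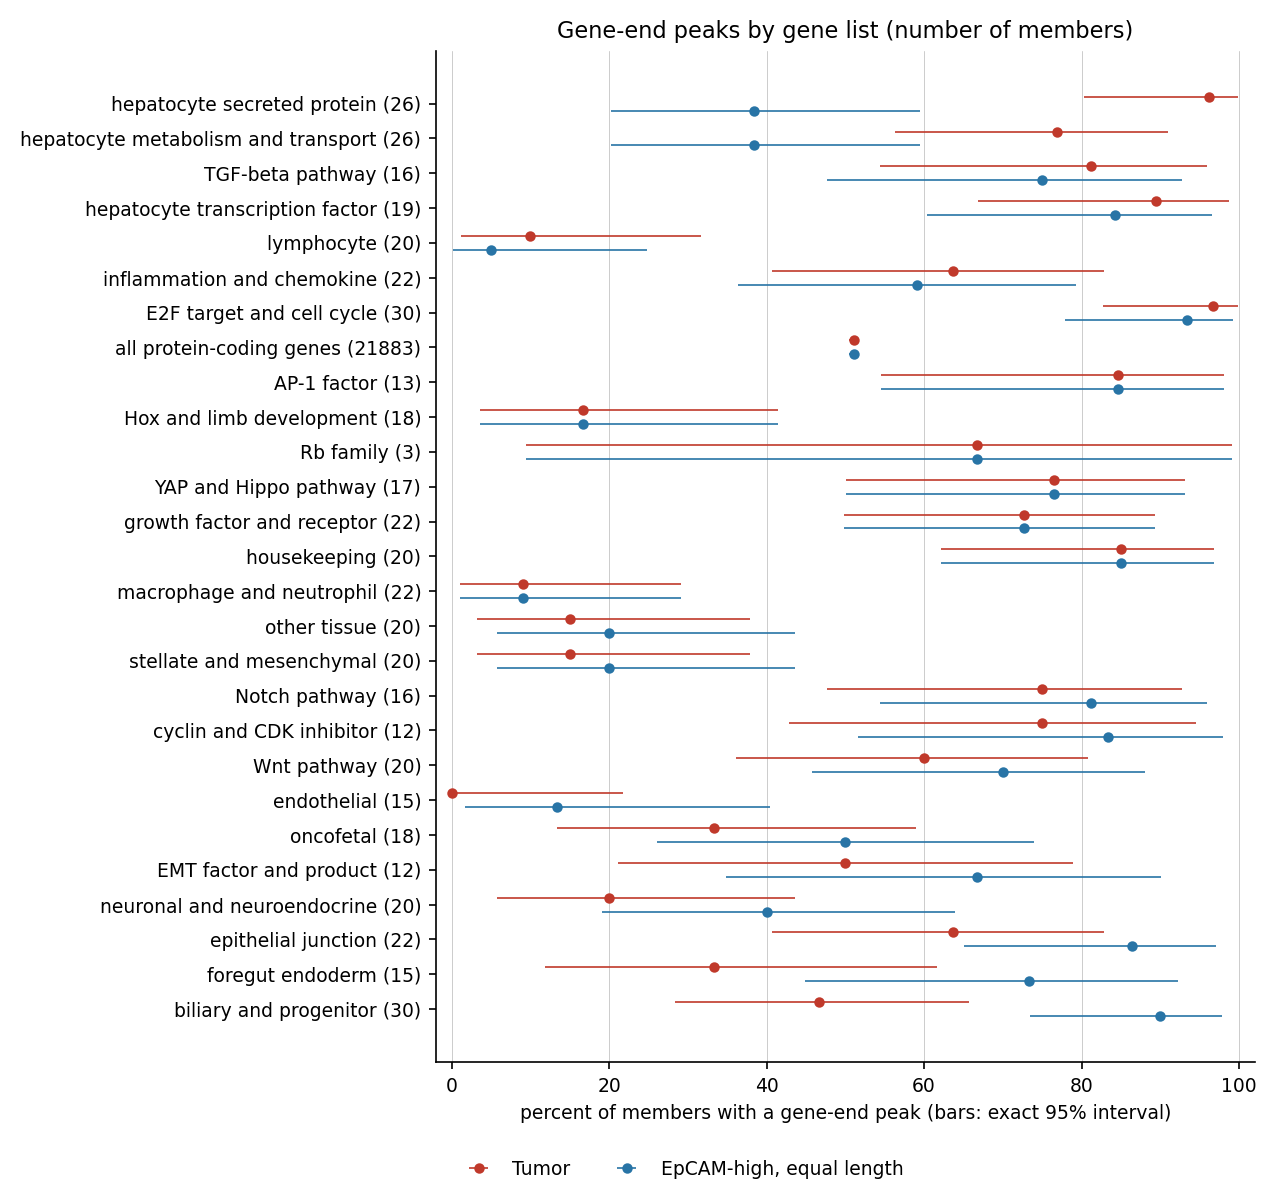
Percent of the members of each gene list (number of members in brackets) with a gene-end peak in Tumor (red, upper point) and in EpCAM-high at equal length (blue, lower point), with exact 95% intervals for counting error. The secreted-protein list, at 96.2% in Tumor and 38.5% in EpCAM-high, is at the top, and the biliary list, at 46.7% in Tumor and 90% in EpCAM-high, is at the bottom.

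Fewer genes had a gene-end peak in Tumor alone than in EpCAM-high alone. As deposited, 562 genes (2.57%) had one in Tumor and not in EpCAM-high, and 2006 (9.17%) had one in EpCAM-high and not in Tumor. Both lists held 10622 genes and neither held 8693. At equal length the 2 numbers were 1268 (5.79%) for Tumor alone and 1262 (5.77%) for EpCAM-high alone. Against this background, 11 of the 26 secreted-protein genes were held by Tumor alone and 0 by EpCAM-high alone, and 0 of the 30 biliary genes by Tumor alone and 15 by EpCAM-high alone. Peaks were also counted over each locus, the gene and 10 kb on each side. At equal length 24.1% of all genes had more locus peaks in Tumor and 22.1% fewer, and the median difference was 0. Of the secreted-protein genes, 22 had more in Tumor and 1 fewer, with a median difference of 2 peaks (Tumor minus EpCAM-high). Of the biliary genes, 6 had more in Tumor and 20 fewer, with a median difference of -1.5. In merged regions, the loci of the secreted-protein list held 49 Tumor-only, 16 EpCAM-high-only and 35 shared regions, and those of the biliary list 16 Tumor-only, 115 EpCAM-high-only and 62 shared regions.

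The naming rule gave 20 genes per direction out of 27 list genes on the Tumor side and 55 on the EpCAM-high side, each with a gene-end peak in 1 list and not in the other at both lengths. They were chosen by these peaks, so their locus counts and their counts at start sites are a description. On the Tumor side, plasma protein genes were among the 20 named. Igfbp1, the gene of a secreted binder of insulin-like growth factors, held 5 locus peaks in Tumor against 1 in EpCAM-high and 0 at equal length, and its Tumor peaks included one over the start (−log10 q 14.8) and one at the other end (7.57). Serpinc1, the gene of antithrombin, held 4 in Tumor and 0 in EpCAM-high, of which the highest, inside the gene, had a −log10 q of 19.2. Haptoglobin (Hp) held 6 in Tumor and 3 in EpCAM-high. These counts include flanking sites, and 3 of the Tumor-held regions at Hp were shared with EpCAM-high.

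Coagulation genes were on the Tumor side too. F10 held 3 locus peaks in Tumor and 1 in EpCAM-high, with a Tumor peak over the start at −log10 q 22.0, the highest of its locus. F9, the gene of factor IX, held 3 in Tumor and 0 in EpCAM-high, and Fgb, the fibrinogen beta chain, 4 in Tumor and 1 in EpCAM-high. The other plasma protein genes were the apolipoprotein genes Apoc3, with 4 in Tumor and 1 in EpCAM-high, and Apoh, with 2 in Tumor and 0 in EpCAM-high, and the adhesion protein gene Vtn, with 3 in Tumor and 2 in EpCAM-high. The list members Alb, Ttr, Trf, Apoa1, Apoa2, Apob, Apoe, Fga, Fgg and C3 had a gene-end peak in both lists, also at equal length. Serpina1a, which belongs to a family of near-identical copies, had no peak in either list.

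Genes of hepatocyte metabolism and transport pointed the same way with fewer members. Of 26 members, 20 had a gene-end peak in Tumor, against 12 in EpCAM-high and 10 at equal length. Cyp8b1 held 4 locus peaks in Tumor and 0 in EpCAM-high, and each of the 4 had a −log10 q above 5. The bile acid importer gene Slc10a1 held 4 in Tumor and 1 in EpCAM-high, and the organic anion transporter gene Slco1b2 3 in Tumor and 2 in EpCAM-high. Cyp3a11, a drug-metabolising cytochrome, held 2 in Tumor and 0 in EpCAM-high. The glucose-releasing phosphatase gene G6pc held 2 in Tumor and 1 in EpCAM-high, and the tryptophan-degrading enzyme gene Tdo2 3 in Tumor and 1 in EpCAM-high. Cps1, the first enzyme of the urea cycle, held 5 in each list as deposited, and 5 in Tumor against 2 in EpCAM-high at equal length. Its gene-end peak in Tumor (−log10 q 14.3) had no EpCAM-high partner. Cyp2e1, Cyp1a2 and Hpd, genes of mature hepatocytes, held 0 locus peaks in either list.

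The remaining Tumor-side genes came from other lists. Nr1i3, the nuclear receptor CAR, held 4 in Tumor and 2 in EpCAM-high, and the liver hormone gene Fgf21 held 3 in Tumor and 1 in EpCAM-high. The chemokine receptor gene Cx3cr1 and the chemokine gene Cxcl9 each held 2 in Tumor and 0 in EpCAM-high, and their Tumor peaks were not at the listed start site. Of the 17 Tumor-side genes with a listed start site, 15 had a Tumor peak within 1000 bp of it and 0 had an EpCAM-high peak there. Since the genes were chosen for a Tumor peak and no EpCAM-high peak at a gene end, the choice largely set these counts.

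At gene ends, transcription factor genes of hepatocytes differed little between the lists. Of 19 members, 17 had a gene-end peak in Tumor and 17 in EpCAM-high, and 16 at equal length. Hnf4a held 6 locus peaks in Tumor, against 5 in EpCAM-high and 2 at equal length. Foxa2 held 4 in Tumor, against 4 in EpCAM-high and 2 at equal length, and Nr1h4, the bile acid receptor, 8 in Tumor, against 10 in EpCAM-high and 8 at equal length. In locus counts the direction depended on list length. As deposited, 5 members had more peaks in Tumor and 9 fewer, with a median difference of 0. At equal length, 10 members had more peaks in Tumor and 2 fewer, with a median difference of 1. The exception by size was Esrrg, with 5 locus peaks in Tumor against 23 in EpCAM-high and 15 at equal length.

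On the EpCAM-high side, biliary genes were among the 20 named. Cftr held 1 locus peak in Tumor against 15 in EpCAM-high and 11 at equal length, and 3 EpCAM-high peaks lay at its start, the highest with a −log10 q of 48.1. Its 1 Tumor peak lay inside the gene in a shared region, with a −log10 q of 6.88 in Tumor and 161.8 in EpCAM-high. Anxa13, an annexin of epithelia, held 1 in Tumor, against 8 in EpCAM-high and 6 at equal length. The tetraspanin gene Tspan8 held 1 in Tumor and 8 in EpCAM-high, and Ehf, an epithelial ETS factor, 2 in Tumor and 6 in EpCAM-high. Both held 5 in EpCAM-high at equal length. Of the other members, the keratin genes Krt19 and Krt7 held 0 in Tumor, against 6 and 4 in EpCAM-high and 2 each at equal length. Cdh6, a cadherin gene without a gene-end peak in either list, held 0 in Tumor, against 10 in EpCAM-high and 6 at equal length.

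Sox9 and Epcam themselves were open in both lists. Sox9 held 3 locus peaks in Tumor and 3 in EpCAM-high, in 2 shared regions and 1 further region in each list alone. Epcam held 1 in Tumor and 2 in EpCAM-high, and the region over its start was shared, with −log10 q of 15.2 in Tumor and 66.0 in EpCAM-high. Sctr, Pkhd1, Bicc1 and Prom1, further members of the biliary list, had gene-end peaks in both lists as deposited and more locus peaks in Tumor at equal length, with 9, 9, 9 and 4 in Tumor against 4, 3, 7 and 3 in EpCAM-high. As deposited, only 2 of all 30 biliary genes had more locus peaks in Tumor, and 25 had fewer.

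Genes of epithelial identity and of neighbouring endoderm tissues were also on this side. Grhl2, a regulator of epithelial junction genes, held 0 in Tumor and 8 in EpCAM-high, and Esrp1, an epithelial splicing factor gene, 1 in Tumor and 6 in EpCAM-high. Both held 5 in EpCAM-high at equal length. Of 22 junction genes, 14 had a gene-end peak in Tumor and 19 in EpCAM-high at either length. Of 15 foregut endoderm genes, 5 had one in Tumor against 12 in EpCAM-high and 11 at equal length. Pdx1, the pancreatic and duodenal homeobox gene, held 0 in Tumor, against 6 in EpCAM-high and 3 at equal length. Its EpCAM-high start peak had a −log10 q of 37.99. Sox17, a factor of endoderm and of the extrahepatic ducts, held 0 in Tumor and 4 in EpCAM-high at either length.

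The other EpCAM-high-side genes had varied roles. Celf4, a neuronal RNA-binding protein gene, held 2 in Tumor and 21 in EpCAM-high, and Syt1, a synaptic vesicle calcium sensor gene, 14 in Tumor and 32 in EpCAM-high. Ltbp1 held 2 in Tumor and 20 in EpCAM-high, and Reln, a secreted glycoprotein gene, 1 in Tumor and 13 in EpCAM-high. The cell cycle kinase gene Cdk6 held 2 in Tumor and 10 in EpCAM-high, and it alone of the 13 genes with a listed start site had a Tumor peak at that site. Hmga2, an oncofetal chromatin protein gene, held 2 in Tumor and 8 in EpCAM-high. Flt1, a VEGF receptor gene, held 0 in Tumor and 5 in EpCAM-high, Il33, an alarmin gene, 1 in Tumor and 4 in EpCAM-high, Peg3, an imprinted gene, 0 in Tumor and 4 in EpCAM-high, and S100a4, a calcium-binding protein gene, 0 in Tumor and 3 in EpCAM-high. At equal length EpCAM-high held 16 at Celf4, 26 at Syt1, 14 at Ltbp1 and 6 at Reln. It then held 6 each at Cdk6 and Hmga2, 4 each at Flt1 and Il33, and 3 each at Peg3 and S100a4. The named genes on this side were longer, with a median of 85.5 kb against 12.9 kb on the Tumor side, and a longer gene has more room for locus peaks.

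**Figure D3:**
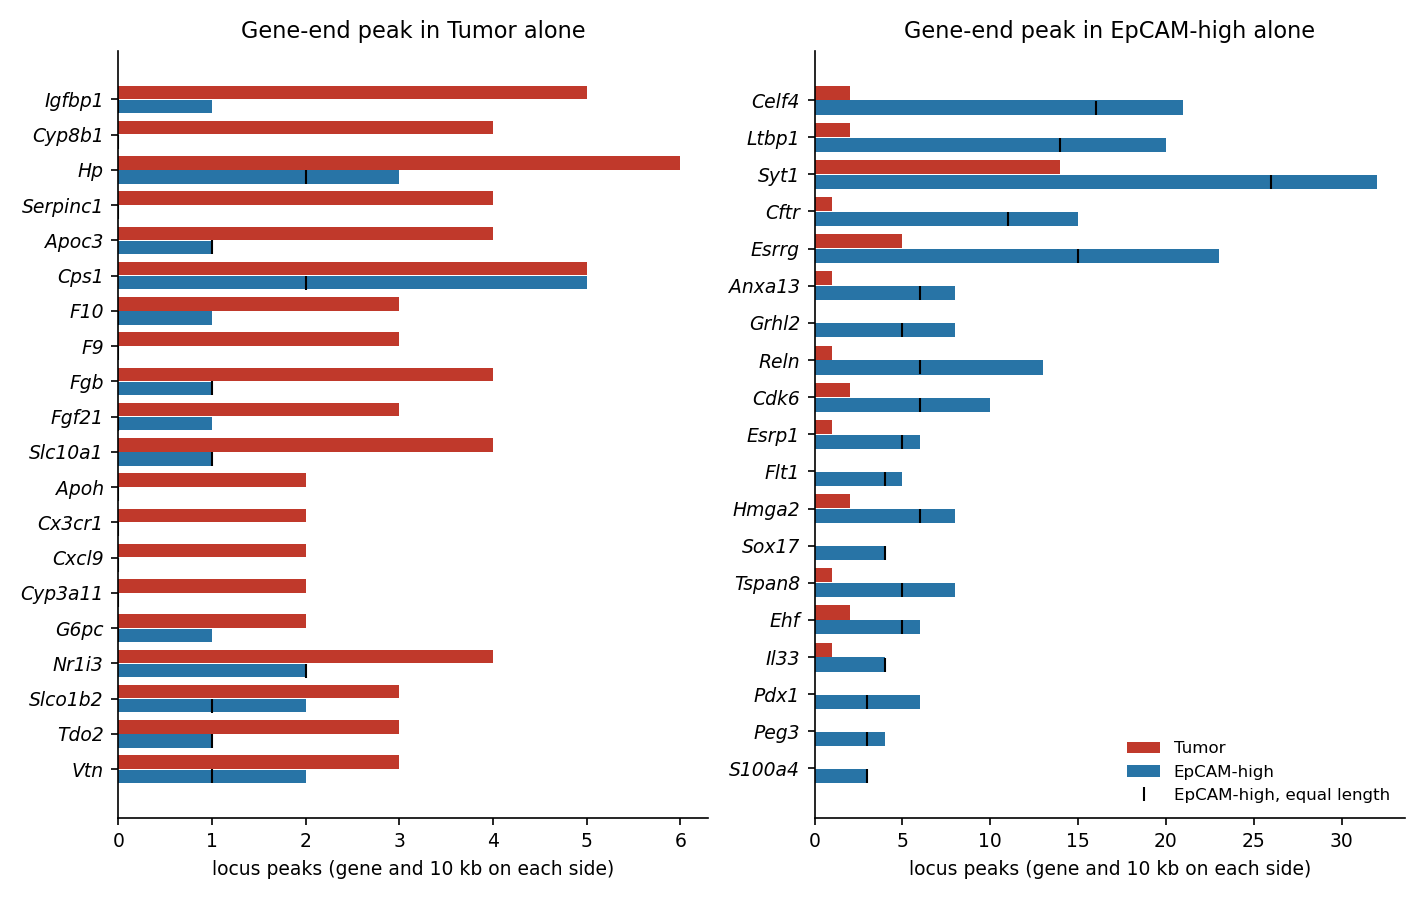
Locus peaks (gene and 10 kb on each side) of the list genes named in the text with a gene-end peak in Tumor alone (left) or in EpCAM-high alone (right), in Tumor (red) and EpCAM-high (blue), with EpCAM-high at equal length as black ticks. The panels have different linear axes, and counts reach 6 in Tumor on the left and 32 in EpCAM-high on the right.

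The 3 lists that the classes did not use were EpCAM-high CK19 and the Prog-like lists of both sets, whose name no sample label carries. Of all 21883 protein-coding genes, EpCAM-high CK19 held a gene-end peak at 12653. The Prog-like list of the CK19 set held one at 12556 and that of the Sox9 set at 11905. Of the 20 Tumor-side genes, EpCAM-high CK19 held a peak at the end of 1, the Prog-like list of the CK19 set at 3 and that of the Sox9 set at 3, and 16 had none of these. Of the 20 EpCAM-high-side genes, EpCAM-high CK19 held such a peak at 19 and the Prog-like lists at 11 (CK19) and 10 (Sox9), and 0 genes had none. The regions as a whole were alike in this. Of the Tumor-only regions, 11.5% overlapped an EpCAM-high CK19 peak and 77.2% (76.5 to 77.9) no peak of the 3 lists, whereas 55.1% (54.6 to 55.7) of the EpCAM-high-only regions overlapped an EpCAM-high CK19 peak and 37.9% (37.4 to 38.5) none of the 3. At equal length 68.2% of Tumor-only and 24.3% of EpCAM-high-only regions were in none of the 3. At some Tumor-side genes the locus peaks of these lists reached or passed the Tumor count. Cx3cr1 held 2 in Tumor, against 7 (CK19) and 10 (Sox9) in the Prog-like lists, and Cxcl9 2 against 4 and 4. F9 held 3 in Tumor against 5 and 6 there, and Tdo2 3 against 3 and 4. Cps1 held 5 in Tumor against 8 in EpCAM-high CK19. At the other Tumor-side genes Tumor held more than each of these lists. EpCAM-high CK19 shares its sort with the EpCAM-high list, and no other list of the series carries the name Tumor.

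At gene ends, 8 pathway and cell cycle lists differed by at most 2 members at equal length. For Wnt genes 12 of 20 had a gene-end peak in Tumor, against 17 in EpCAM-high and 14 at equal length, and for Notch genes 12 of 16 in Tumor, against 14 in EpCAM-high and 13 at equal length. Single members stood out in locus counts. Tcf7l2, a Wnt effector, held 2 in Tumor and 11 in EpCAM-high, Notch2 5 in Tumor and 15 in EpCAM-high, and Igf1r, the insulin-like growth factor receptor gene, 2 in Tumor and 20 in EpCAM-high. These 3 were chosen after their values were seen. YAP and Hippo genes had 13 of 17 in Tumor, against 15 in EpCAM-high and 13 at equal length, and TGF-beta genes 13 of 16 in Tumor, against 14 in EpCAM-high and 12 at equal length.

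Growth factor and receptor genes had 16 of 22 in Tumor, against 18 in EpCAM-high and 16 at equal length, and AP-1 genes 11 of 13 in Tumor, against 12 in EpCAM-high and 11 at equal length. E2F target and cell cycle genes were open almost throughout, with 29 of 30 in Tumor and 29 in EpCAM-high, and 28 at equal length. Cyclin and CDK inhibitor genes had 9 of 12 in Tumor, against 11 in EpCAM-high and 10 at equal length. Among the genes deleted in the model, Rb1 held 6 locus peaks in Tumor, against 6 in EpCAM-high and 4 at equal length, Rbl1 1 in Tumor and 0 in EpCAM-high, and Rbl2 2 in each list. The labels name no deleted exons, so these peaks are no check of the knockout.

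Oncofetal genes had 6 of 18 with a gene-end peak in Tumor and 9 in EpCAM-high at either length. Afp, the alpha-fetoprotein gene used as a marker of liver cancer, had no gene-end peak in either list and held 4 locus peaks in Tumor against 1 in EpCAM-high, of which 1 in each list had a −log10 q of 5 or more. Its locus overlaps that of Alb, which held 4 in Tumor and 3 in EpCAM-high, and they share a Tumor-only region. Neuronal and neuroendocrine genes had 4 of 20 in Tumor, against 11 in EpCAM-high and 8 at equal length. EMT genes had 6 of 12 in Tumor and 8 in EpCAM-high at either length, and Hox and limb genes 3 of 18 in Tumor, against 5 in EpCAM-high and 3 at equal length. Inflammation and chemokine genes had 14 of 22 in Tumor, against 15 in EpCAM-high and 13 at equal length.

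Of the markers of macrophages, T cells and endothelium, at most 1 per cell type had a gene-end peak in either list. Of the 4 stellate markers, 2 had one in each list. For the locus counts below, the mean over all protein-coding genes was 1.67 per gene in Tumor, 2.39 in EpCAM-high and 1.69 in EpCAM-high at equal length. Of 5 macrophage markers, 0 had a gene-end peak in Tumor and 1, Cd68, in EpCAM-high, with 3 locus peaks in all in Tumor, 6 in EpCAM-high and 3 in EpCAM-high at equal length, whereas the Prog-like lists held 33 (CK19) and 29 (Sox9). The 4 T cell markers held 2 in Tumor and 1 in EpCAM-high, and the 4 endothelial markers 8 in Tumor and 6 in EpCAM-high, of which Stab2, a sinusoidal endothelial receptor gene, held 7 in Tumor and 2 in EpCAM-high. The 4 stellate markers held 2 in Tumor, against 8 in EpCAM-high, 5 of them at Col1a1, and 3 at equal length, 2 of them at Col1a1. Ptprc, the pan-leukocyte gene, held 0 in Tumor and 2 in EpCAM-high, Cd3e and Thy1 0 in both, and Pecam1 1 in Tumor and 2 in EpCAM-high. Over the fuller lists, macrophage and neutrophil genes had 2 of 22 with a gene-end peak in Tumor, against 3 in EpCAM-high and 2 at equal length. Lymphocyte genes had 2 of 20 in Tumor, against 3 in EpCAM-high and 1 at equal length. Endothelial genes had 0 of 15 in Tumor, against 3 in EpCAM-high and 2 at equal length. Stellate and mesenchymal genes had 3 of 20 in Tumor, against 7 in EpCAM-high and 4 at equal length. Genes of other tissues had 3 of 20 in Tumor, against 5 in EpCAM-high and 4 at equal length, and housekeeping genes 17 of 20 in Tumor, against 18 in EpCAM-high and 17 at equal length. By the same fixed markers, the EpCAM-high list had a gene-end peak at 7 of 7 biliary markers, against 3 in Tumor, and Tumor at 5 of 6 hepatocyte markers, against 4 in EpCAM-high. Any part of a few other cells in the differences was not tested.

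Promoter sequence differed between the classes. Of 21262 RefSeq promoters of 17491 genes, with the 200 bases before each start, 514 were covered by a Tumor peak alone, 1674 by an EpCAM-high peak alone and 9766 by both. Their median GC content was 53.2%, 61.0% and 63.0% in that order, against 56.5% over all promoters. At equal length the medians of the Tumor-alone and EpCAM-high-alone promoters were 57.0% and 61.0%. The HNF4 motif CAAAGTC, searched on both strands, was in 5.64% (3.81 to 8.003) of Tumor-alone promoters, 2.33% (1.66 to 3.17) of EpCAM-high-alone promoters and 2.82% of all. The C/EBP motif TTGCNNAA was in 10.1% (7.65 to 13.1), 5.32% (4.29 to 6.502) and 7.05% in the same order. Promoters covered by neither list held HNF4 at 3.30% (2.94 to 3.68) and C/EBP at 9.06% (8.48 to 9.66), and this C/EBP share lies inside the Tumor-alone interval. The Cyp8b1 promoter printed above is among the matches to HNF4.

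At equal length these HNF4 and C/EBP shares were 4.97% and 7.69% among Tumor-alone promoters, against 2.35% and 5.39% among EpCAM-high-alone promoters, and the intervals of C/EBP then overlapped. The FOXA motif TGTTTAC was in 4.09% of Tumor-alone, 2.87% of EpCAM-high-alone and 2.04% of all promoters, and the intervals of the 2 one-list classes overlapped. The AP-1 motif TGANTCA was in 5.06% of Tumor-alone, 6.57% of EpCAM-high-alone and 4.93% of all promoters, and the intervals of the 2 one-list classes again overlapped. At equal length it was in 3.71% (2.67 to 4.996) of Tumor-alone and 7.12% (5.71 to 8.77) of EpCAM-high-alone promoters. Promoters covered by neither list then held AP-1 at 6.70% (6.22 to 7.22), inside the EpCAM-high-alone interval. The GC-rich SP and KLF motif GGGCGGG was in 20.2% of Tumor-alone, 37.7% of EpCAM-high-alone and 29.5% of all promoters. At equal length it was in 30.1% (27.4 to 32.9) of Tumor-alone promoters, close to the share of all, and in 38.2% of EpCAM-high-alone promoters. The ETS motif CCGGAAG was in 8.75%, 4.18% and 8.23%. The E2F motif TTCCCGC was in 3.50%, 4.18% and 4.27%. A match is a string of letters, not a bound site, and GC content differed between the classes beside these shares.

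The miR-200 family lay on the EpCAM-high side in peak count. These microRNAs repress the mesenchymal factors ZEB1 and ZEB2 and are typical of epithelia, and they were picked with the values known. The mature 3p strands are shown because they fall into 2 groups by seed (bases 2 to 8, in capitals), which sets the targets they share.
mmu-miR-200b-3p: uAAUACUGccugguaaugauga
mmu-miR-200c-3p: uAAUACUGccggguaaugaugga
mmu-miR-429-3p: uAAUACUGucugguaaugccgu
mmu-miR-200a-3p: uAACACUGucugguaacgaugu
mmu-miR-141-3p: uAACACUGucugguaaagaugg
The first 3 share the seed AAUACUG and the last 2 the seed AACACUG. Within 5 kb of the hairpin, Mir200b on chromosome 4 had 1 peak in Tumor against 4 in EpCAM-high and 2 at equal length. Mir429, in the same cluster, had 1 in Tumor against 3 in EpCAM-high and 1 at equal length. Mir200c on chromosome 6 had 0 in Tumor and 2 in EpCAM-high, and Mir141, beside it, 1 in Tumor and 2 in EpCAM-high. The windows of a cluster overlap, so their peaks are partly the same. The liver microRNA gene Mir802 had 2 in each list as deposited, and 2 in Tumor against 0 in EpCAM-high at equal length. Other liver microRNA genes varied. Mir192 had 1 in each list as deposited, and 1 in Tumor against 0 in EpCAM-high at equal length. Mir194-1 had 0 in both lists, and Mir194-2 had 0 in Tumor, against 1 in EpCAM-high and 0 at equal length. Over all 1005 hairpins, 335 had a peak within 5 kb in Tumor and 386 in EpCAM-high, or 316 at equal length.

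Tumor-only regions were spread into gene-poor stretches of the genome. The median distance from an intergenic region to the nearest protein-coding gene was 133 kb for Tumor-only, 45.3 kb for EpCAM-high-only and 28.1 kb for shared regions. Of the Tumor-only class 13.8% lay over 500 kb from such a gene, against 2.59% of the EpCAM-high-only class and 0.622% of the shared class. In 5-Mb windows with 5 or fewer protein-coding genes lay 1724 of 15139 Tumor-only regions (11.4%, 10.9 to 11.9), against 764 of 33909 EpCAM-high-only regions (2.25%, 2.10 to 2.42) and 1.19% of the shared regions. At equal length the shares were 9.49% of Tumor-only and 1.77% of EpCAM-high-only regions.

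These regions were weak in the authors' own scores. The Tumor-only regions of gene-poor windows had a median −log10 q of 2.74, against 4.30 for other Tumor-only regions. Among peaks with −log10 q of 5 or more, 3.50% (3.09 to 3.94) of Tumor-only and 1.78% (1.63 to 1.94) of EpCAM-high-only regions lay in such windows, and the intergenic distances were 33.9 kb for Tumor-only and 40.8 kb for EpCAM-high-only. Of the Tumor-only regions in gene-poor windows, 91.6% overlapped no peak of the other 3 lists. Over whole lists, gene-poor windows held 5.09% of Tumor peaks, 1.80% of EpCAM-high, 3.36% of EpCAM-high CK19 peaks, and 1.63% (CK19) and 1.84% (Sox9) of the peaks of the Prog-like lists. With −log10 q of 5 or more, Tumor and EpCAM-high CK19 were both at 1.70%.

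**Figure D4:**
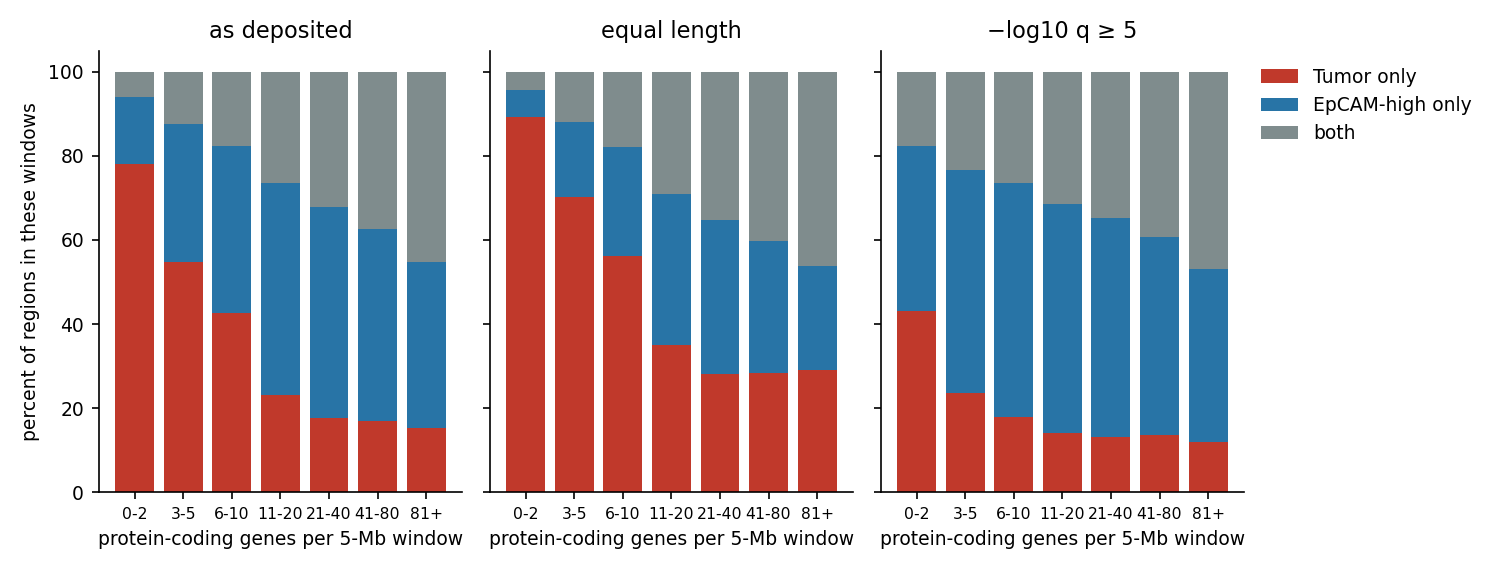
Share of Tumor-only (red), EpCAM-high-only (blue) and shared (grey) regions among all regions of 5-Mb windows, by the number of protein-coding genes in the window, as deposited, at equal length and with −log10 q of 5 or more (linear axes from 0). As deposited, windows with 0 to 2 genes held 672 Tumor-only, 137 EpCAM-high-only and 52 shared regions, and with −log10 q of 5 or more they held 81, 74 and 33.

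At equal length, 477 windows held 50 or more regions. In 19 of them more than 80% of the regions were Tumor only, and 13 of these 19 were among the 23 gene-poor windows. In 0 windows did EpCAM-high-only regions pass 80%, and their highest share was 67.9%. Equal length leaves out the lower EpCAM-high peaks and none of Tumor's, so it bears unequally on the 2 shares. The window from 95 to 100 Mb of chromosome 2 held 73 Tumor-only regions at equal length and no other, and 4 with −log10 q of 5 or more. Its single protein-coding gene is Lrrc4c, a synaptic adhesion gene. The window from 45 to 50 Mb of chromosome 15, with Kcnv1 and Csmd3, held 68 Tumor-only and 1 EpCAM-high-only region. With −log10 q of 5 or more it held 5 and 1. The highest EpCAM-high share was from 110 to 115 Mb of chromosome 4, with 10 Tumor-only, 36 EpCAM-high-only and 7 shared regions and 20 genes. That window held 9, 56 and 8 in the same order as deposited, and 1, 47 and 6 with −log10 q of 5 or more.

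Single genes were ranked by their locus peaks as well. The 5 genes with the largest Tumor excess of locus peaks at equal length were the long neuronal genes Lrrc4c, Csmd3, Lrp1b, Cadm2 and Cdh18. In that order they held 25, 24, 24, 22 and 18 in Tumor, against 1, 6, 8, 5 and 3 in EpCAM-high. EpCAM-high CK19, from the same sort in another set, held 5, 26, 18, 18 and 10. With −log10 q of 5 or more Lrrc4c held 1 in Tumor and 0 in EpCAM-high, Csmd3 and Lrp1b 2 in Tumor and 1 in EpCAM-high, Cadm2 3 in each list, and Cdh18 7 in Tumor and 1 in EpCAM-high. The 5 genes with the largest excess in EpCAM-high were also long. The ranking at equal length had already left out the lower EpCAM-high peaks and none of Tumor's, so the threshold of 5 bears unequally on the 2 sides. Auts2, a neurodevelopmental regulator gene, held 4 in Tumor and 41 in EpCAM-high, and 0 and 30 with −log10 q of 5 or more. Tenm4, a teneurin gene, held 0 in Tumor and 22 in EpCAM-high, Etl4 13 in Tumor and 48 in EpCAM-high, Rbms3, an RNA-binding protein gene, 5 in Tumor and 29 in EpCAM-high, and Pde4d, a phosphodiesterase gene, 29 in Tumor and 59 in EpCAM-high. The EpCAM-high counts of Auts2, Tenm4, Etl4, Rbms3 and Pde4d at equal length were 27, 19, 31, 23 and 46.

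Among genes shorter than 50 kb, those with the largest Tumor excess at equal length were Gm42346, Mtarc2, Dnase2b, Iigp1 and Prelp. Mtarc2, a mitochondrial reductase gene, held 11 in Tumor and 5 in EpCAM-high, and 8 in Tumor and 5 in EpCAM-high with −log10 q of 5 or more. Prelp, a matrix proteoglycan gene, held 6 in Tumor and 3 in EpCAM-high, and Dnase2b, a nuclease gene, 8 in Tumor and 5 in EpCAM-high. With flanks of 50 kb the difference for Dnase2b (Tumor minus EpCAM-high) was -1. Iigp1, an interferon-induced GTPase gene with near-identical copies, held 7 in Tumor and 4 in EpCAM-high, but 2 in Tumor and 3 in EpCAM-high with −log10 q of 5 or more. On the EpCAM-high side were Cfap45, S100a3, Hif3a, Tlr5 and 9130008F23Rik. Hif3a, a hypoxia-inducible factor gene, held 1 in Tumor and 8 in EpCAM-high, and Tlr5, the flagellin receptor gene, 1 in Tumor and 8 in EpCAM-high. Cfap45, a cilium-associated gene, held 0 in Tumor and 8 in EpCAM-high, and S100a3 0 in Tumor and 7 in EpCAM-high. Of the 2 genes known by identifier alone, Gm42346 held 8 in Tumor and 4 in EpCAM-high, and 9130008F23Rik 1 in Tumor and 8 in EpCAM-high. The loci of S100a3 and S100a4 overlap.

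One-list regions were not spread over the chromosomes in the same proportions. At equal length chromosome 16 held 1026 Tumor-only and 679 EpCAM-high-only regions, which is 5.41% (5.10 to 5.75) and 3.66% (3.39 to 3.94) of these classes. Chromosome 14 held 5.50% of the Tumor-only and 4.01% of the EpCAM-high-only class. The reverse was seen on chromosome 13, with 3.48% (3.22 to 3.75) of Tumor-only and 5.58% (5.25 to 5.92) of EpCAM-high-only regions, and on chromosome 4, with 4.29% (4.01 to 4.59) of Tumor-only and 6.01% (5.68 to 6.37) of EpCAM-high-only regions. These 4 chromosomes were picked for their difference. On chromosome 16, a 5-Mb window with 7 protein-coding genes and another with 5 each held 103 Tumor-only and 6 EpCAM-high-only regions, whereas one with 33 genes held 27 and 53. On chromosome 14, a window with 2 genes held 100 and 5, whereas one with 13 genes held 52 and 72. The part of windows with few genes in the chromosome shares was not tested, and the shares were not computed with −log10 q of 5 or more.

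**Figure D5:**
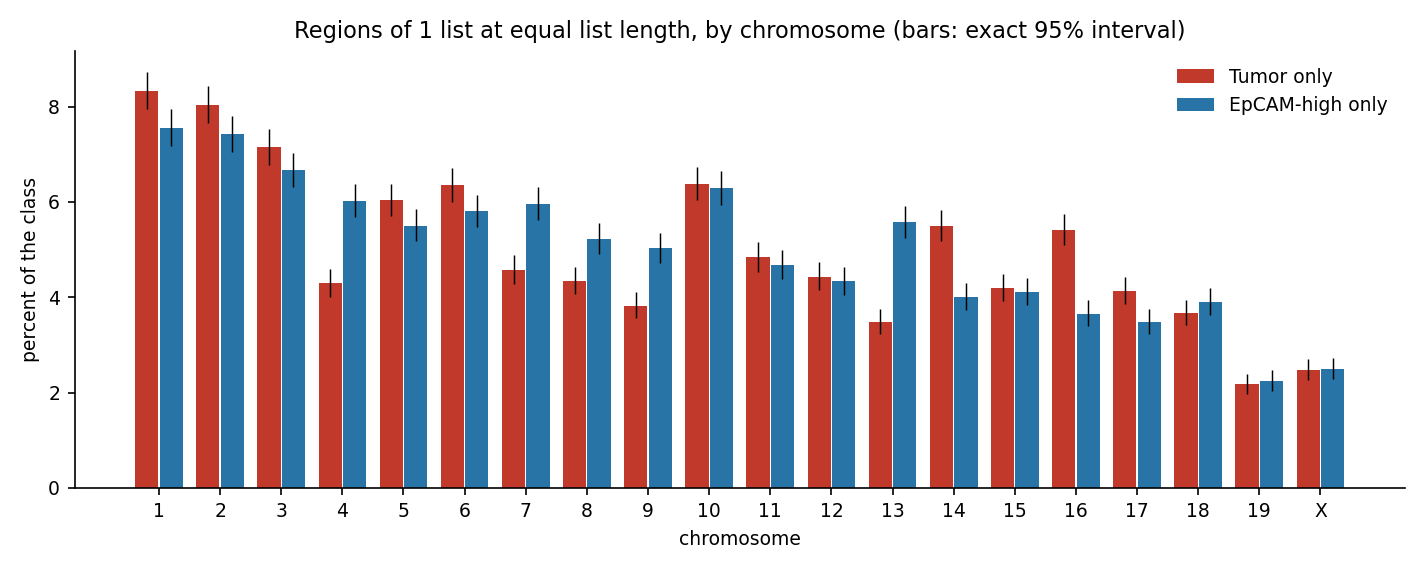
Percent of the Tumor-only (red) and EpCAM-high-only (blue) regions at equal list length that lie on each chromosome (linear axis from 0, error bars exact 95% intervals for counting error). Tumor-only regions took the larger share on chromosomes 14 and 16, and EpCAM-high-only regions on chromosomes 4 and 13.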

How the data were processed

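Per the labels, bulk ATAC-seq libraries were made from sorted YFP-positive mouse liver cells. Tools listed, without role or order, in the submitters' processing notes are deepTools, HOMER, MACS2 and Bowtie 1.1.2, and the build is mm10. Whether libraries were pooled, reads shifted or duplicates removed is not stated in any source used here. The deposited peak lists have the narrowPeak layout, with the authors' fold enrichment over background as a linear ratio and, as deposited, −log10 p and −log10 q. All 3 served to describe, rank and filter peaks, each on the scale of its own list. The lowest −log10 q was 1.30 in both lists compared, the value of a q of 0.05.

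Regions, gene ends (1000 bp), loci (10 kb flanks) and 5-Mb windows were computed in Python 3.11.15 with numpy 2.4.6, pandas 2.3.3 and scipy 1.17.1, on the 21883 protein-coding genes of the RefSeq table of GRCm38.p6 on assembled chromosomes. That table has no strand or exons, so exons, introns and UTRs were not separated. Start sites were known for 79.9% of genes, under the limit of 80%, so either gene end replaced the start site. Sequences are RefSeq's, for GRCm38.p6. The steps were tested on simulated peaks.

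Genes were named by rule: (a) up to 20 list genes per direction with a gene-end peak in 1 list and not in the other at both lengths, by locus difference; (b) the 5 genes per direction with the largest locus difference at equal length, and 5 under 50 kb; (c) the 5 highest regions per class; (d) 14 marker and model genes whatever their values; (e) promoters of up to 4 genes per direction from (a). Members, the 26 gene lists (493 genes), motifs and markers were chosen with earlier results of these data known, and gene-poor windows and microRNAs after values were seen. Alternatives were equal length, −log10 q of 5 or more, other overlaps, windows and flanks, and start sites. A named gene and a motif are not reported here. With 1 list per condition, no test was made.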

Additional observations from a re-analysis of the deposited data

How the results depend on the processing

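The Tumor-only share of regions was 20.7% as deposited, 32.6% at equal length by −log10 p or by fold enrichment, 13.7% with −log10 q of 5 or more, and 21.1% with the overlap raised to 50% of the width of either of the peaks or with 500 bp around each summit. The shared class took 33.1% as deposited, and in the same order 35.4%, 35.2%, 37.0%, 32.3% and 32.2%, and 34.5% when peaks within 500 bp were merged. Autosomes or assembled chromosomes alone left both shares within their intervals. At gene ends lay 6.15% of Tumor-only and 8.60% of EpCAM-high-only regions. These were 9.02% of Tumor-only regions at equal length, 9.23% of Tumor-only and 9.69% of EpCAM-high-only with −log10 q of 5 or more, 10.6% and 13.8% with a window of 2500 bp, and 3.71% and 6.47% with start sites. Genes with an end peak in Tumor alone numbered 562, against 1268 at equal length by −log10 p, 1215 by fold and 352 with start sites, and those in EpCAM-high alone 2006, against 1262 and 1326 at equal length. Of the counts over gene lists, 4 left their interval, all with the window of 2500 bp: 30 biliary, 21 growth factor and 30 E2F genes in EpCAM-high, and 19 junction genes in Tumor. Held by EpCAM-high CK19, Prog-like CK19 and Prog-like Sox9 at equal length were 20.4%, 19.7% and 17.6% of Tumor-only and 70.9%, 23.4% and 20.3% of EpCAM-high-only regions. Chromosomes 4, 14 and 16 held 4.29%, 5.50% and 5.41% of Tumor-only regions at equal length. Gene-poor windows held 9.49% of Tumor-only and 1.77% of EpCAM-high-only regions at equal length, 3.50% and 1.78% with −log10 q of 5 or more, and 19.2% and 5.48% when windows with up to 10 genes were counted. The difference in locus peaks (Tumor minus EpCAM-high) reversed for Dnase2b, to -1 with 50 kb flanks, and for Iigp1, to -1 with −log10 q of 5 or more. For Slc10a1 and Hnf4a it was 0 with 50 kb flanks, and for Fgf21, Vtn, Cadm2 and Afp 0 with −log10 q of 5 or more. The cause of these shifts was not tested. The alternatives for gene-poor windows, named genes at −log10 q of 5 or more, promoter motifs at equal length and assembled chromosomes were chosen after seeing the data. No paired analysis was possible because each list stands for 1 condition and carries no replicate. Read depth limits what the lists can show, and is unknown.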
